A study of Mus musculus with 36 samples.

Results

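The comparison of day 6 with day 2 covers the maturation phase of brown adipocyte differentiation in culture, from the end of the induction cocktail to day 6. It uses every library labelled D6 against every library labelled D2, 12 on each day, out of 36 libraries in the series, the other 12 being day 0 libraries. The cells descended from a mouse brown pre-adipocyte line in which *Rxra*, the gene of retinoid X receptor alpha, was disrupted with CRISPR/Cas9. Both groups consisted of 2 monoclonal *Rxra*-/- lines, 48 and 66, each carrying a retrovirus with wild-type *Rxra* (*Rxra*WT, labelled WT) or *Rxra* with alanine in place of serine 22 (*Rxra*SA, labelled S22A), with 3 replicates per clone, genotype and day. Insulin and triiodothyronine were in the medium on all days. Until day 2 the medium also held dexamethasone (a synthetic glucocorticoid), isobutylmethylxanthine (which raises cyclic AMP by blocking phosphodiesterases) and indomethacin (a cyclo-oxygenase inhibitor), and from day 2 to day 6 these 3 agents were left out. Day 2 cells therefore carried the cocktail and day 6 cells did not, and time in culture and withdrawal of the cocktail cannot be told apart. All libraries of clone 48 were in pool 1 and all of clone 66 in pool 2, so that clone and pool cannot be told apart either, and no untouched wild-type cells are among these libraries.

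In culture, glucocorticoid and cyclic AMP induce the early transcription factors C/EBPβ and C/EBPδ, which switch on PPARγ and C/EBPα. PPARγ binds DNA as a heterodimer with RXR and maintains the genes of fat storage, fatty acid handling and insulin-stimulated glucose uptake. Mature brown adipocytes store fat in droplets, burn it in mitochondria, and respond to β-adrenergic signals by inducing *Ucp1*, the uncoupling protein of heat production.

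Total counts were 15664658 to 21388687 at day 2 and 15683839 to 24198110 at day 6. The 2 mitochondrial rRNA genes held 0.106% to 3.48% of the count at day 2 and 0.113% to 7.57% at day 6, and 6 libraries exceeded 3%, 1 of day 2 and 5 of day 6. These were replicate 3 of clone 48 *Rxra*WT day 6, replicate 3 of clone 66 *Rxra*WT day 2, and replicates 2 and 3 of clone 66 day 6 in both genotypes. Without them clone 66 keeps only replicate 1 at day 6, so rRNA share, clone and replicate number cannot be told apart in values of that fit. For genes described here whose call changed when these 6 libraries were left out, both values are given. *Rxra*WT and *Rxra*SA libraries that shared clone, day and number deviated from their group means together, so the 24 libraries are fewer than 24 independent measurements. With each such pair summed, 8720 of the genes called below were called again in the same direction. The loss of a call with the pairs summed is given beside the gene concerned. Levels are CPM, counts scaled to library size with TMM factors, given as the median of the 12 libraries of a day with the lowest and highest in brackets, and where a single value stands for a day it is that median. Changes are log2 fold changes of day 6 against day 2 ± SE from edgeR's quasi-likelihood test, with p-values adjusted by the method of Benjamini and Hochberg over all genes tested. The replicates are called technical in the deposited description and independent in the study's methods, and p-values measure only the spread between these libraries.

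*Rxra*, the gene that was edited and re-introduced, had 570 CPM at day 2 (399.5 to 712) and 240.2 CPM at day 6 (182 to 347). Every day 6 library was below every day 2 library (log2 fold change -1.15 ± 0.11, adjusted p = 4.75e-11). Reads of the edited locus (GRCm38 chr2:27676440-27762957) and of the introduced cDNA were counted together, so this value neither checks the labels nor separates the sources. In these bulk samples, fewer cells of a type and less RNA per cell cannot be told apart.

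Between day 2 and day 6, 10366 of 16723 genes tested changed (62%), of which 5328 rose (31.9%) and 5038 fell (30.1%). Among called genes 2236 were at least 2-fold higher and 990 at least 2-fold lower, and 247 were at least 16-fold higher against 70 at least 16-fold lower. In 1599 genes (9.56%) every day 6 library was above every day 2 library, and in 1265 (7.56%) every day 6 library was below, so that the days were separate in 17.1% of genes. Counts of list members that rose or fell stand against these 31.9% and 30.1%, and a share near them is no result about the list. The plot of change against level shows every gene tested.

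**Figure D1:**
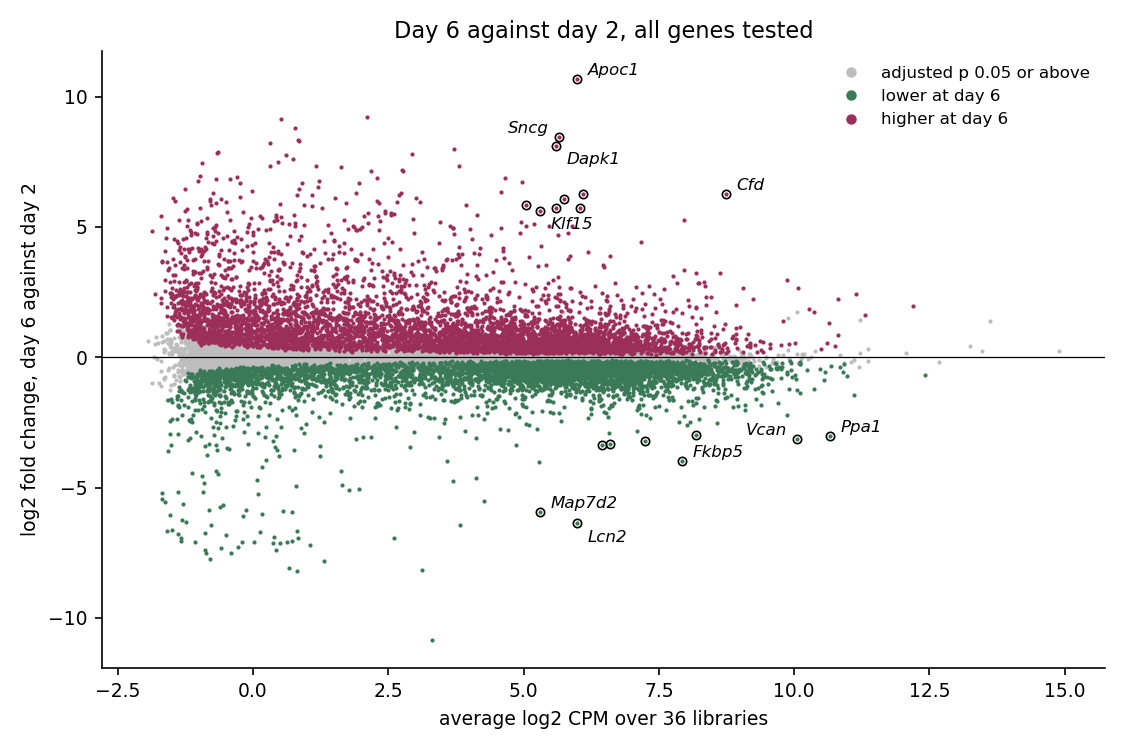
Log2 fold change of day 6 against day 2 (vertical axis) against average log2 CPM over 36 libraries (horizontal axis) for the 16723 genes tested, coloured by call. Circles mark the 10 largest increases and 9 of the 10 largest decreases among well expressed genes without overlap between days. Apoc1 lies at the top, with a log2 fold change of 10.68, and Lcn2 at -6.36 is the lowest circle.

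The 10 largest increases were taken among well expressed genes whose days did not overlap, so separate days were a condition of the choice. They included secreted and lipid-associated products of fat cells. *Apoc1*, an apolipoprotein of lipoprotein particles, had 0.0888 CPM at day 2 (0 to 0.276) and 176 CPM at day 6 (113 to 256) (log2 fold change 10.68 ± 0.25, adjusted p = 2.74e-27). *Cfd*, which encodes the adipocyte protease adipsin, had 16.9 CPM at day 2 (3.92 to 48.6) and 1158 CPM at day 6 (707 to 1834) (log2 fold change 6.27 ± 0.30, adjusted p = 4.79e-19). *Sncg*, the synuclein gene expressed in adipocytes, had 0.404 CPM at day 2 (0.0541 to 0.910) and 137 CPM at day 6 (114 to 181) (log2 fold change 8.46 ± 0.22, adjusted p = 4.58e-26). For these 3 genes the day 6 libraries stood far above the highest day 2 library, and *Apoc1* was near its detection limit at day 2, with 22 counts over 12 libraries. *Rarres2*, the gene of the adipokine chemerin, rose from a median of 2.04 to 146 CPM. The kinase gene *Dapk1*, the selenium-binding protein gene *Selenbp1*, the carbonic anhydrase gene *Car3*, the immune checkpoint gene *Vsir*, *Ankef1* and the transcription factor gene *Klf15* completed the 10, with increases of 5.62 to 8.12 on the log2 scale. Without the 6 libraries over 3% mitochondrial rRNA, *Ankef1* rose by 6.82 in place of 5.82.

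The 10 largest decreases, chosen under the same condition and 9 of which are named, included genes of the stress and glucocorticoid responses and of the matrix. *Lcn2*, an acute-phase protein that binds siderophores, had 162 CPM at day 2 (43.9 to 369.6) and 1.45 CPM at day 6 (1.02 to 3.84) (log2 fold change -6.36 ± 0.28, adjusted p = 8.90e-20), and -5.76 without the 6 high rRNA libraries. *Map7d2*, a microtubule-associated protein gene, had 119.7 CPM at day 2 (48.3 to 179) and 1.61 CPM at day 6 (1.09 to 2.56) (log2 fold change -5.93 ± 0.19, adjusted p = 2.02e-23). As the choice required, no day 6 library of either gene reached the lowest day 2 library. The glucocorticoid targets *Fkbp5* and *Sgk1*, the interferon-inducible *Ifi204*, the peptide-processing *Cpe*, the matrix proteoglycan *Vcan*, the pyrophosphatase *Ppa1* and the polymerase subunit *Pole4* followed, with log2 fold changes of -2.98 to -3.99. *Ifi204* has near-identical neighbours, so its counts are uncertain.

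Genes known to answer glucocorticoid moved both ways after the cocktail was removed. *Fkbp5* (GRCm38 chr17:28399094-28517527), a co-chaperone of the glucocorticoid receptor and one of its most sensitive targets, had 613 CPM at day 2 (419.7 to 958) and 38.8 CPM at day 6 (32.8 to 45.5) (log2 fold change -3.99 ± 0.12, adjusted p = 7.48e-25). *Tsc22d3*, which encodes the glucocorticoid-induced leucine zipper, had 212 CPM at day 2 (165 to 280.4) and 46.7 CPM at day 6 (30.2 to 56.5) (log2 fold change -2.28 ± 0.10, adjusted p = 1.07e-19). *Sgk1*, the serum- and glucocorticoid-regulated kinase, had 180.4 CPM at day 2 (48.1 to 463) and 15.9 CPM at day 6 (9.53 to 27.1) (log2 fold change -3.34 ± 0.28, adjusted p = 2.44e-12). Day 6 lay wholly below day 2 for all 3 genes, which the choice of the largest decreases required of *Fkbp5* and *Sgk1*. The day 0 medians were 36.8 CPM for *Fkbp5* and 23.3 CPM for *Tsc22d3*. *Per1*, a clock gene that glucocorticoid also induces, fell less, from 16.6 to 9.82 CPM (log2 fold change -0.69 ± 0.20, adjusted p = 0.00266), with overlapping ranges. *Zbtb16*, another classical target, rose instead, from 0.846 to 2.42 CPM (log2 fold change 1.1994 ± 0.29, adjusted p = 5.90e-04), and stayed under 5 CPM in all 24 libraries. The clones differed, with a change of 2.53 in clone 48 alone and 0.23 in clone 66 alone. *Klf15* had 2.30 CPM at day 2 (1.31 to 3.75) and 119.5 CPM at day 6 (85.6 to 134) (log2 fold change 5.62 ± 0.17, adjusted p = 3.19e-24), and *Tgm2*, the gene of tissue transglutaminase, rose from 28.1 to 189.6 CPM (log2 fold change 2.72 ± 0.093, adjusted p = 6.47e-23). *Hsd11b1*, whose enzyme regenerates active glucocorticoid inside the cell, rose from 20.7 to 123 CPM (log2 fold change 2.69 ± 0.30, adjusted p = 1.05e-09). Of 28 glucocorticoid response genes tested (of 33 listed), 13 fell, 11 rose and 4 did not pass the test, beside the 30.1% and 31.9% of all genes that fell and rose. In 9 every day 6 library was below every day 2 library (7.56% of all genes). Their median log2 fold change was -0.14, against 0.012 over all genes tested.

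The glucocorticoid receptor binds an inverted repeat whose inner letters are ACANNNTGT. These letters, which read the same on both strands, occur in the promoter window (250 bases before to 50 after the start, RefSeq, GRCm38.p6) of 7.9% of 27025 genes and of 5 of the 27 listed genes with a window, *Sgk1*, *Lcn2*, *Mt1*, *Glul* and *Fam107a*. The stretches of *Lcn2* and *Sgk1*, the genes among them with the largest decreases, are shown 5′ to 3′ on the gene's strand with the matching letters in capitals. *Lcn2* is on the minus strand (chr2:32387873-32387901), and the upstream and downstream starts of *Sgk1* are on the plus strand (chr10:21978495-21978603 and chr10:21993654-21993762), the latter inside an intron of the longer transcripts.
Lcn2: aagtatttcaACAGAATGTactggcaatt
Sgk1, upstream start: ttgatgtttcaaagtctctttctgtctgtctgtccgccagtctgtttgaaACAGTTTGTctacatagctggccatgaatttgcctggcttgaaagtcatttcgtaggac
Sgk1, downstream start: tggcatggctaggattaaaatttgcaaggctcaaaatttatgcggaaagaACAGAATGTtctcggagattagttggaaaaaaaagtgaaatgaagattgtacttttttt
The match begins 152 bases before the start in *Lcn2* and 127 and 186 bases before the starts of *Sgk1*. Of the 4 tested genes with the letters 3 fell and 1 did not pass the test, and of 19 tested genes with a window that lacks them 8 fell and 8 rose. A match is a description of these letters and not evidence of binding.

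**Figure D2:**
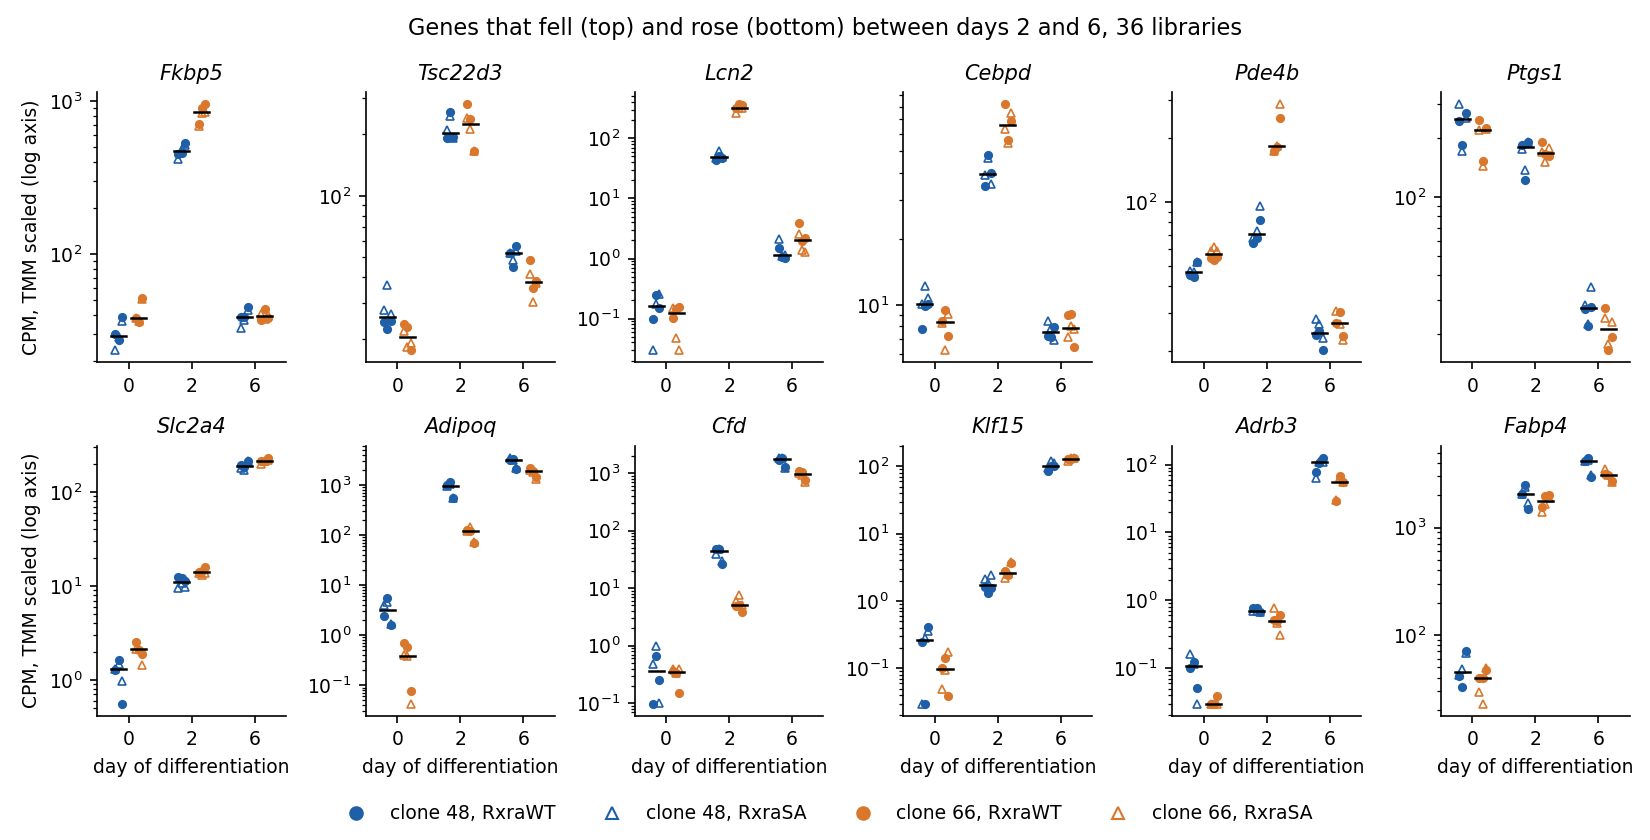
CPM scaled by TMM on a log axis (vertical) by day (horizontal) in each of 36 libraries for 6 genes that fell between days 2 and 6 (top) and 6 that rose (bottom). Colours give the clone, symbols the genotype, and lines the median of each clone and day, with values under 0.03 CPM drawn at 0.03. Fkbp5, Tsc22d3, Lcn2, Cebpd and Pde4b peak at day 2, while Ptgs1 is high at days 0 and 2, and Adipoq and Cfd differ between the clones at day 2.

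Genes that answer cyclic AMP rose and fell in shares near those of all genes. *Pde4b*, a phosphodiesterase that degrades cyclic AMP and is itself induced by it, had 134 CPM at day 2 (63.9 to 287) and 25.7 CPM at day 6 (20.1 to 30.6) (log2 fold change -2.33 ± 0.16, adjusted p = 9.09e-15). *Pde4d*, its paralogue, fell from 43.0 to 22.9 CPM (log2 fold change -0.96 ± 0.16, adjusted p = 1.92e-06), and *Pde10a*, another phosphodiesterase, fell from 1.34 to 0.0561 CPM. *Dusp4*, a phosphatase of MAP kinases, fell from 88.6 to 42.1 CPM (log2 fold change -1.03 ± 0.18, adjusted p = 7.28e-06). In the other direction, *Pde4a* rose from 3.14 to 7.33 CPM (log2 fold change 1.22 ± 0.17, adjusted p = 1.18e-07) and *Pde1b* from 1.40 to 3.24 CPM (log2 fold change 1.37 ± 0.15, adjusted p = 1.90e-09), so that phosphodiesterase genes moved both ways. The immediate early factor *Nr4a1* rose from 2.13 to 4.57 CPM (log2 fold change 1.2011 ± 0.22, adjusted p = 1.42e-05), whereas its relatives *Nr4a2* and *Nr4a3* fell, with log2 fold changes of -0.85 and -2.91. *Crem*, which yields the cyclic AMP repressor ICER, had 12.5 CPM at day 2 (7.5 to 18.7) and 14.2 CPM at day 6 (8.58 to 22.9) (log2 fold change 0.15 ± 0.10, adjusted p = 0.229). The ranges of *Crem* overlapped, and without the 6 libraries over 3% mitochondrial rRNA its log2 fold change was 0.29 (adjusted p = 0.0389). Of 31 tested genes of the list (of 36), 11 fell (35.5%, against 30.1% of all genes), 9 rose (29.0%, against 31.9%) and 11 did not pass the test, with a median of 0.091.

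The cyclic AMP response element, searched as its full palindrome TGACGTCA, stood in the promoter window of 2.03% of genes and of 3 of 27 listed genes with a window. Among the 3, *Dio2* and *Areg* were too low to be tested, and *Dusp1*, a MAP kinase phosphatase gene, had medians of 11.7 CPM at day 2 and 15.2 CPM at day 6 and did not pass the test (adjusted p = 0.0958). The stretch of *Dusp1* is shown because it is the tested gene of the list that holds the full element. It lies on the minus strand (chr17:26508558-26508665), and the element in capitals begins 143 bases before the start.
Dusp1: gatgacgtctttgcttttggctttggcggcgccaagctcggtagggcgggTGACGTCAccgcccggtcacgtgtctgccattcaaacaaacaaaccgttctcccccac

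Indomethacin blocks the enzymes encoded by *Ptgs1* and *Ptgs2*, and the prostaglandin genes showed the following at its removal. *Ptgs1*, the constitutive cyclo-oxygenase, had 173 CPM at day 2 (123 to 192) and 23.5 CPM at day 6 (16.6 to 34.8) (log2 fold change -2.81 ± 0.12, adjusted p = 1.74e-20), and day 6 was wholly below day 2. *Ptgs2*, the inducible enzyme, had 20.5 CPM at day 2 (8.22 to 34.3) and 15.3 CPM at day 6 (7.97 to 41.9) (log2 fold change -0.23 ± 0.16, adjusted p = 0.215), with overlapping ranges, and passed the test at -0.34 when replicate 2 of clone 66 *Rxra*WT day 6 was left out. *Ptges2*, a prostaglandin E synthase, fell (log2 fold change -0.72 ± 0.075, adjusted p = 3.40e-10), while *Ptges*, the inducible synthase of the same product, rose from 21.1 to 84.0 CPM. Among receptors, *Ptgfr*, which binds prostaglandin F2α, rose from 11.98 to 92.5 CPM (log2 fold change 2.84 ± 0.19, adjusted p = 3.15e-15), and the prostacyclin receptor *Ptgir* rose from 0.580 to 4.94 CPM (log2 fold change 3.07 ± 0.22, adjusted p = 3.97e-14). The prostaglandin E receptor *Ptger4* fell by 1.36 on the log2 scale. Of 22 tested members, 10 rose, 5 fell and 7 did not pass the test (median 0.36).

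Acute-phase genes moved both ways. *Serpina3n*, a protease inhibitor, had 31.1 CPM at day 2 (1.55 to 82.9) and 1.10 CPM at day 6 (0.0555 to 2.99) (log2 fold change -4.75 ± 0.22, adjusted p = 4.31e-19), with a slight overlap of the days, and *Saa3*, a serum amyloid gene, fell from 9.48 to 0.254 CPM. Both belong to families of near-identical genes, which makes their counts uncertain. The cytokine gene *Il6* fell from 1.67 to 0.255 CPM. *Steap4*, a metalloreductase induced in fat by feeding and inflammation, rose instead from 4.33 to 122 CPM (log2 fold change 5.05 ± 0.27, adjusted p = 1.13e-17), as did *Cp*, the ferroxidase ceruloplasmin, from 3.10 to 25.1 CPM (log2 fold change 3.36 ± 0.27, adjusted p = 4.02e-13). Complement *C3* rose from 360 to 819 CPM. Of 24 tested, 12 fell and 8 rose, with a median of -0.40.

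Transcription factors of adipogenesis moved both ways. *Cebpd* had 51.1 CPM at day 2 (34.8 to 82.0) and 7.83 CPM at day 6 (6.44 to 9.12) (log2 fold change -2.77 ± 0.13, adjusted p = 3.43e-19), and *Cebpb* fell from 76.6 to 35.5 CPM (log2 fold change -0.88 ± 0.12, adjusted p = 9.99e-08). *Cebpa*, which follows them in the cascade, had 711 CPM at day 2 (622 to 862) and 489 CPM at day 6 (399.5 to 572) (log2 fold change -0.57 ± 0.14, adjusted p = 8.54e-04), and thus was already high at day 2 and lower in every day 6 library. *Pparg*, the central regulator, had 392 CPM at day 2 (327 to 490.4) and 515 CPM at day 6 (357 to 658), an increase of 1.30-fold with overlapping ranges (log2 fold change 0.38 ± 0.079, adjusted p = 8.35e-05). *Klf15* was the largest well expressed increase in the list, and *Klf6*, a Krüppel-like factor that promotes differentiation, rose from 45.9 to 114 CPM (log2 fold change 1.18 ± 0.11, adjusted p = 4.97e-11). The lipid-sensing receptors *Nr1h3* and *Nr1h2* rose by 1.16 and 0.90 on the log2 scale. *Rxrb*, a paralogue of *Rxra*, had medians of 78.6 and 73.6 CPM and did not pass the test, and its change was -0.19 without the 6 high rRNA libraries, at the threshold. In all, 11 of 27 tested rose (40.7%) and 7 fell (25.9%), with a median of 0.11. Without the 6 libraries high in mitochondrial rRNA 7 rose and 7 fell, and with pairs summed 4 fell.

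Of 20 adipokine and apolipoprotein genes tested (of 22), 18 rose, 1 fell and 1 did not pass the test, with a median of 2.7002. In 15 of them every day 6 library was above every day 2 library, which held for 9.56% of all genes. *Adipoq*, the adiponectin gene, had 339 CPM at day 2 (67.5 to 1142) and 2105 CPM at day 6 (1295 to 3451) (log2 fold change 2.98 ± 0.32, adjusted p = 6.39e-10). *Retn*, the resistin gene, had 16.5 CPM at day 2 (12.8 to 26.04) and 363 CPM at day 6 (166 to 742) (log2 fold change 4.40 ± 0.16, adjusted p = 1.76e-22). *Lep*, the leptin gene, had 1 count over the 12 day 2 libraries and 1045 counts over the 12 day 6 libraries, a ratio of CPM of 970.9 with a counting interval of 173.9 to 38380 (95%). The exception was *Angptl4*, an inhibitor of lipoprotein lipase that fasting and glucocorticoid induce, which had 548 CPM at day 2 (459.6 to 684) and 114 CPM at day 6 (97.3 to 142) (log2 fold change -2.27 ± 0.090, adjusted p = 3.60e-21). Its ranges did not overlap, and its direction was opposite to that of the 18 genes that rose.

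Genes of the lipid droplet moved in both directions, and so did the steps of triglyceride synthesis. *Plin1*, the droplet coat protein of mature adipocytes, had 287 CPM at day 2 (229 to 367) and 598 CPM at day 6 (450 to 775) (log2 fold change 1.00 ± 0.12, adjusted p = 3.17e-09). *G0s2*, the inhibitor of the lipase ATGL, had 141 CPM at day 2 (85.5 to 222) and 659 CPM at day 6 (487 to 769) (log2 fold change 2.19 ± 0.16, adjusted p = 4.53e-14). *Abhd5*, the activator of the same lipase, had 599 CPM at day 2 (498 to 764) and 183 CPM at day 6 (131 to 252) (log2 fold change -1.69 ± 0.091, adjusted p = 1.54e-17). The ranges of all 3 were separate, with the inhibitor up and the activator down, and *Pnpla2*, the lipase itself, fell by 1.16 on the log2 scale. *Mgll*, which completes lipolysis by cleaving monoglycerides, rose from 8.20 to 104 CPM (log2 fold change 3.51 ± 0.12, adjusted p = 5.31e-23), and *Pnpla3*, a relative of ATGL induced by feeding, rose from 0.193 to 18.2 CPM (log2 fold change 6.22 ± 0.22, adjusted p = 2.80e-22). *Fitm2*, which helps droplets bud from the endoplasmic reticulum, fell from 879 to 319 CPM (log2 fold change -1.56 ± 0.073, adjusted p = 3.59e-19), and the coat genes *Plin2* and *Plin4* fell by 1.23 and 0.63 on the log2 scale. Of 23 tested members 11 rose and 8 fell (median 0.33). The letters of a PPAR and RXR site, AGGTCA repeated after 1 base on either strand, occurred in the promoter window of 0.0481% of genes and of 0 of 23 droplet genes with a window.

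In triglyceride synthesis 9 of 22 genes rose and 9 fell, with a median of 0.013. *Gpat3*, the acyltransferase that adipocytes use for the initial step, had 1261 CPM at day 2 (1038 to 1660) and 332 CPM at day 6 (213 to 440) (log2 fold change -2.03 ± 0.11, adjusted p = 1.95e-17). *Acsl1*, the main acyl-CoA synthetase of fat cells, had 4722 CPM at day 2 (4210 to 5548) and 1770 CPM at day 6 (1361 to 2169) (log2 fold change -1.44 ± 0.096, adjusted p = 4.12e-15). Both fell below the day 2 range, whereas the mitochondrial acyltransferase *Gpam* rose from 252 to 533 CPM. Glycerol supply changed as well. *Pck1*, the key enzyme of glyceroneogenesis, rose from 0.469 to 20.3 CPM (log2 fold change 5.29 ± 0.27, adjusted p = 7.75e-15). The glycerol channel *Aqp7* rose from 1.04 to 10.5 CPM (log2 fold change 3.61 ± 0.22, adjusted p = 4.82e-16), and glycerol kinase, *Gk*, fell from 90.9 to 33.2 CPM (log2 fold change -1.52 ± 0.11, adjusted p = 6.12e-14).

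Fatty acid synthesis genes rose in 14 of 18 cases, with a median of 0.84, and their summed level went from a median of 7033 CPM (4489 to 11420) to 20880 CPM (13830 to 28070). Most of that difference lay in *Scd1* and its paralogue *Scd2*, whose medians went from 2570 to 10450 and from 974 to 4903 CPM. *Thrsp*, the thyroid hormone-responsive lipogenic protein Spot 14, had 0.905 CPM at day 2 (0.379 to 1.53) and 66.6 CPM at day 6 (45.8 to 100.1) (log2 fold change 6.32 ± 0.15, adjusted p = 2.55e-27). *Scd1*, the desaturase that makes monounsaturated fat, had 2570 CPM at day 2 (1155 to 5298) and 10450 CPM at day 6 (7895 to 14140) (log2 fold change 1.98 ± 0.17, adjusted p = 3.09e-12). *Fads2*, a desaturase of polyunsaturated fat, had 57.1 CPM at day 2 (27.8 to 88.4) and 343 CPM at day 6 (211 to 465) (log2 fold change 2.62 ± 0.14, adjusted p = 5.18e-18). None of these ranges overlapped. *G6pdx*, which supplies NADPH, was the 1 member that fell, from 373 to 217 CPM (log2 fold change -0.72 ± 0.094, adjusted p = 4.14e-08).

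*Fasn*, the fatty acid synthase and a marker that the study follows, had a change that rested on a few libraries. It had 397 CPM at day 2 (283 to 895) and 676 CPM at day 6 (204 to 1806), with fully overlapping ranges (log2 fold change 0.68 ± 0.28, adjusted p = 0.0338). Its level varied between replicates of a group along with the share of mitochondrial rRNA. In clone 66 *Rxra*SA at day 6 the 3 libraries had 449, 1238 and 1806 CPM of *Fasn*, with 0.218%, 4.80% and 7.57% of their count in mitochondrial rRNA. In clone 48 *Rxra*WT at day 6 they had 265, 339 and 1035 CPM, with 0.269%, 0.889% and 5.51%. Without the 6 libraries over 3% mitochondrial rRNA the log2 fold change was -0.043 (adjusted p = 0.91), and leaving out any of 10 single libraries also ended the call (0.53 to 0.64), as did summing the pairs (adjusted p = 0.133). In clone 66 alone the change was 1.19 (adjusted p = 0.0118) and in clone 48 alone 0.23 (adjusted p = 0.66). *Slc2a4*, plotted beside it, stayed within 174 to 232 CPM at day 6 at every share of mitochondrial rRNA. The part of the rRNA share in the *Fasn* values was not tested.

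**Figure D3:**
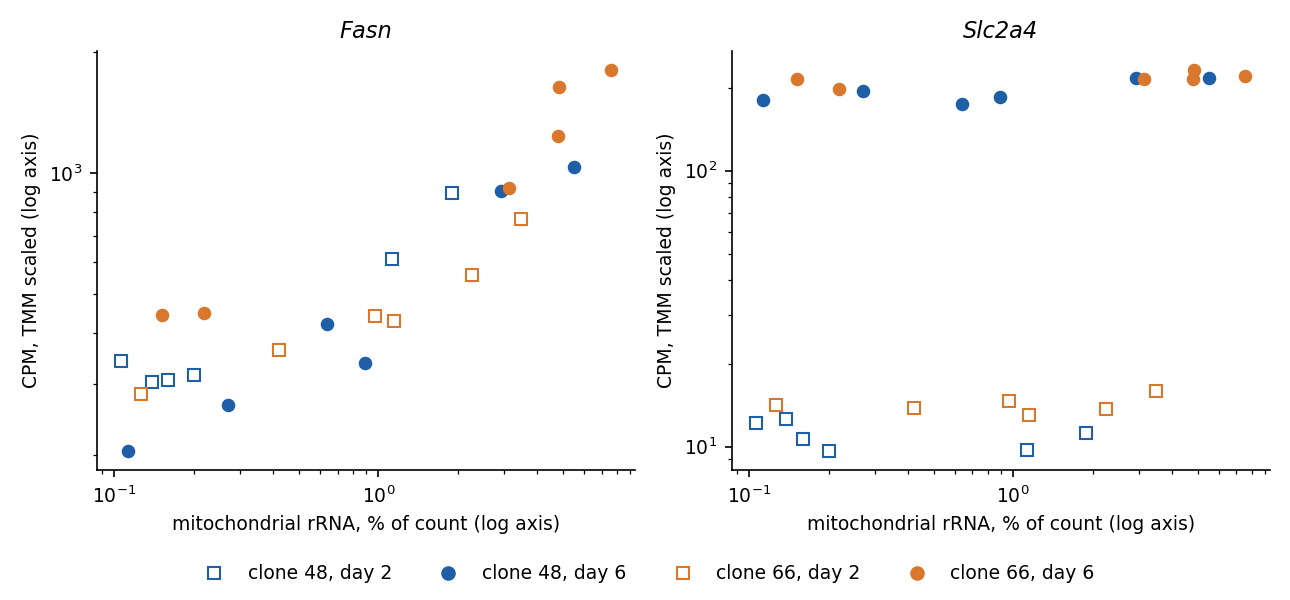
CPM scaled by TMM (vertical, log axis) against the percentage of the count in the 2 mitochondrial rRNA genes (horizontal, log axis) for Fasn (left) and Slc2a4 (right) in the 24 libraries of days 2 (open squares) and 6 (filled circles). Fasn is highest, at 1806 CPM, in the library with 7.57% mitochondrial rRNA, while Slc2a4 separates the days at all shares.

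Among genes of glucose uptake, the insulin-responsive transporter rose. *Slc2a4* (GRCm38 chr11:69942539-69948188), the insulin-responsive glucose transporter GLUT4, had 12.8 CPM at day 2 (9.62 to 15.9) and 215 CPM at day 6 (174 to 232) (log2 fold change 4.04 ± 0.10, adjusted p = 1.20e-26), 16.5-fold higher. *Slc2a1*, the basal transporter GLUT1, rose from 37.4 to 149 CPM, and *Gapdh*, a glycolytic enzyme whose pseudogenes make counts uncertain, from 253 to 1050 CPM (log2 fold change 2.02 ± 0.077, adjusted p = 1.43e-21). The insulin receptor *Insr* had 110.4 CPM at day 2 (81.5 to 150.4) and 142 CPM at day 6 (86.7 to 189) (log2 fold change 0.33 ± 0.12, adjusted p = 0.0222), with overlapping ranges, and did not pass the test without the 6 high rRNA libraries (0.060, adjusted p = 0.703) or when replicate 3 of day 6 was left out in clone 48 *Rxra*WT, clone 66 *Rxra*WT or clone 66 *Rxra*SA (0.26 to 0.29), or with pairs summed (adjusted p = 0.116). Downstream of it, *Irs2* fell from 156 to 55.5 CPM (log2 fold change -1.65 ± 0.15, adjusted p = 1.59e-11) and *Pik3r1*, the regulatory subunit of PI 3-kinase, fell from 558 to 285 CPM (log2 fold change -1.01 ± 0.11, adjusted p = 2.81e-10). The adaptor *Irs1* had 95.8 and 164 CPM (log2 fold change 0.64, adjusted p = 0.0371), and did not pass the test without the 6 high rRNA libraries (0.14, adjusted p = 0.734) or with pairs summed (adjusted p = 0.12). The insulin and glucose list held 10 higher (41.7%) and 9 lower genes (37.5%) of 24 tested (median 0.31). For fatty acids, *Fabp4*, the adipocyte binding protein, had 1929 CPM at day 2 (1407 to 2484) and 3145 CPM at day 6 (2667 to 4457) (log2 fold change 0.86 ± 0.12, adjusted p = 2.89e-07), and *Cd36*, a fatty acid translocase, rose by 0.71 on the log2 scale. Lipoprotein lipase, *Lpl*, had medians of 3102 and 4542 CPM and did not pass the test. Of 11 tested genes of fatty acid uptake and binding 6 rose and 3 fell (median 0.64).

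Breakdown of branched-chain amino acids, a fuel of adipocytes, rose in 12 of 19 genes (median 0.52). *Ivd*, the isovaleryl-CoA dehydrogenase of leucine breakdown, had 25.96 CPM at day 2 (11.6 to 40.5) and 101 CPM at day 6 (81.2 to 139) (log2 fold change 2.18 ± 0.11, adjusted p = 2.12e-18). The dehydrogenase subunit *Bckdha* rose from 33.0 to 76.6 CPM and its activating phosphatase *Ppm1k* from 17.0 to 41.0 CPM. The kinase that inactivates the complex, *Bckdk*, fell by 0.14 on the log2 scale (adjusted p = 0.0355), a value that lost its call when any of 9 single libraries was left out (-0.12 to -0.14) or without the 6 high rRNA libraries (-0.068, adjusted p = 0.439), and with pairs summed (adjusted p = 0.135). *Mccc1*, a subunit of methylcrotonyl-CoA carboxylase in leucine breakdown, rose from 33.1 to 100.1 CPM (log2 fold change 1.5025 ± 0.29, adjusted p = 3.12e-05) with overlapping ranges, and its change was 0.92 without the 6 high rRNA libraries (adjusted p = 0.0196).

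Among nuclear genes of the respiratory chain, 24 of 78 fell (30.8%, near the 30.1% of all genes), 10 rose (12.8%, against 31.9%) and 44 did not pass the test (median -0.11). These counts depended on scaling and on 6 libraries, with 14 lower and 14 higher by library size alone, and 9 lower and 18 higher without the libraries over 3% mitochondrial rRNA, while 15 were lower with pairs summed. *Atp5g1*, a subunit of the ATP synthase rotor, had 217 CPM at day 2 (184 to 303) and 85.7 CPM at day 6 (63.1 to 133) (log2 fold change -1.35 ± 0.11, adjusted p = 3.83e-13), and *Ndufa4* fell from 561 to 219 CPM (log2 fold change -1.25 ± 0.14, adjusted p = 7.86e-10). *Ndufb3*, a complex I subunit that the study follows, had 143 CPM at day 2 (80.5 to 187) and 133 CPM at day 6 (89.8 to 187) (log2 fold change -0.038 ± 0.14, adjusted p = 0.836), with no separation of the days. In fatty acid oxidation 10 of 25 fell (40.0%) and 8 rose (32.0%, or 5 genes with pairs summed), with a median of 0.048. *Acadm*, the medium-chain dehydrogenase, had 1518 CPM at day 2 (1040 to 2020) and 609.7 CPM at day 6 (479 to 746) (log2 fold change -1.29 ± 0.081, adjusted p = 9.51e-16), and *Cpt1a*, the gate of fatty acid entry, fell from 109 to 41.2 CPM (log2 fold change -1.34 ± 0.11, adjusted p = 2.45e-12). *Acad10*, of the acyl-CoA dehydrogenase family, rose from 20.9 to 41.1 CPM (log2 fold change 1.03 ± 0.11, adjusted p = 1.85e-10), and *Acot2*, a mitochondrial acyl-CoA thioesterase, rose from 23.99 to 43.5 CPM (log2 fold change 0.87 ± 0.12, adjusted p = 1.52e-07). In the citrate cycle list 11 of 30 fell and 6 rose (median -0.17), among the latter *Idh2*, a mitochondrial isocitrate dehydrogenase (log2 fold change 0.72 ± 0.071, adjusted p = 8.77e-11).

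Pyruvate dehydrogenase kinases, which switch off the entry of pyruvate, changed in opposite directions. *Pdk1* had 25.6 CPM at day 2 (6.10 to 52.1) and 722 CPM at day 6 (436 to 1082) (log2 fold change 5.26 ± 0.24, adjusted p = 1.14e-19). *Pdk4*, which fasting and glucocorticoid induce, had 171 CPM at day 2 (110 to 299) and 65.0 CPM at day 6 (54.6 to 77.1) (log2 fold change -1.47 ± 0.16, adjusted p = 6.57e-10). Both sets of ranges were separate. The carrier subunits of pyruvate, *Mpc1* and *Mpc2*, fell, with log2 fold changes of -1.18 and -1.1964. Of 8 genes of the mitochondrial chromosome that were tested (of 13) 4 rose and 0 fell, with *mt-Nd5* at 472 and 775 CPM (log2 fold change 0.72 ± 0.069, adjusted p = 5.32e-11). Medians of 6 of the 13 were below 1 CPM at day 2, and of 6 at day 6, so these counts cover only a part of that chromosome. Peroxisomal genes moved both ways (median 0.17), with 9 of 23 higher, among them the thiolase *Acaa1b* (log2 fold change 2.22 ± 0.19, adjusted p = 3.63e-12) and the phytanoyl-CoA hydroxylase *Phyh* (log2 fold change 1.28 ± 0.11, adjusted p = 7.09e-12), and 10 lower, among them *Scp2* (log2 fold change -1.08 ± 0.10, adjusted p = 3.60e-11) and *Far1* (log2 fold change -0.93 ± 0.16, adjusted p = 5.97e-06).

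Brown adipocyte identity was checked against its markers. *Ucp1* had 9 counts over the 12 day 2 libraries and 40 over the 12 day 6 libraries, and was too low to be tested. *Prdm16* (14 and 60 counts), *Dio2* (64 and 24 counts) and *Zic1* were also below the filter. *Cox8b*, a muscle and brown fat subunit of cytochrome oxidase, had 0.111 CPM at day 2 (0.0541 to 0.414) and 37.3 CPM at day 6 (25.7 to 49.6) (log2 fold change 7.9996 ± 0.22, adjusted p = 9.78e-26). *Cox7a1*, its companion, had 0.3003 CPM at day 2 (0.0513 to 0.496) and 12.9 CPM at day 6 (4.06 to 26.7) (log2 fold change 5.42 ± 0.22, adjusted p = 3.90e-21). *Adrb3*, the β-adrenergic receptor of adipocytes, had 0.672 CPM at day 2 (0.308 to 0.780) and 67.6 CPM at day 6 (29.5 to 126) (log2 fold change 6.87 ± 0.20, adjusted p = 6.58e-25). These 3 rose from near 0, and every day 6 library was above every day 2 library. *Elovl3*, a fatty acid elongase of brown fat, fell from 5.85 to 0.471 CPM (log2 fold change -3.39 ± 0.22, adjusted p = 2.83e-15), and *Ppargc1a*, the coactivator of mitochondrial biogenesis, had 19.6 CPM at day 2 (16.1 to 31.3) and 22.9 CPM at day 6 (10.2 to 29.6) (log2 fold change 0.0080 ± 0.12, adjusted p = 0.962). *Cidea*, a droplet protein of brown fat, was at or below 1.66 CPM in all 24 libraries (log2 fold change 0.99 ± 0.38, adjusted p = 0.0239), and lost its call without replicate 2 of day 6 or replicate 3 of day 2 in clone 48 *Rxra*WT (0.87 and 0.85). Without the 6 high rRNA libraries its change was 1.72 (adjusted p = 0.00101), and with pairs summed it did not pass the test (adjusted p = 0.0846). In clone 48 alone *Cidea* rose by 3.22, and in clone 66 alone it was too low to be tested. Of 24 tested brown fat genes (of 38), 10 rose (41.7%) and 8 fell (33.3%), with a median of 0.059. The adipocyte markers summed to 7243 to 9590 CPM at day 2 and 12190 to 18100 CPM at day 6, and the brown markers to 19.8 to 44.0 and 57.6 to 91.6 CPM. Adipocyte markers were thus abundant, while *Ucp1*, *Prdm16*, *Dio2* and *Zic1*, defining markers of brown adipocytes, were at or near 0.

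Of 39 DNA replication genes 30 fell and 1 rose, with a median of -0.46. *Orc1*, a subunit of the origin recognition complex, had 21.9 CPM at day 2 (18.0 to 26.5) and 9.19 CPM at day 6 (8.20 to 10.9) (log2 fold change -1.23 ± 0.058, adjusted p = 4.05e-19). *Mcm2*, a subunit of the replicative helicase, had 448 CPM at day 2 (417 to 479) and 252 CPM at day 6 (194 to 316) (log2 fold change -0.84 ± 0.066, adjusted p = 3.48e-13). Both were lower in each day 6 library than in any day 2 library. The licensing factor *Cdt1* was the 1 increase (log2 fold change 0.42 ± 0.15, adjusted p = 0.0152), and it did not pass the test without the 6 high rRNA libraries (0.25, adjusted p = 0.274) or with pairs summed (adjusted p = 0.097). Among CDK inhibitors, *Cdkn2d* (p19) rose from 22.2 to 50.3 CPM (log2 fold change 1.19 ± 0.065, adjusted p = 2.28e-17), *Cdkn2c* (p18) from 275 to 518 CPM and *Cdkn1b* (p27) from 103 to 175 CPM, while *Cdkn1a* (p21) had 113 CPM at day 2 (45.4 to 237) and 109.6 CPM at day 6 (30.0 to 174) and did not pass the test. *Cdk6* fell from 36.3 to 15.2 CPM (log2 fold change -1.31 ± 0.15, adjusted p = 1.16e-09), *Ccnd1* fell and *Ccnd2* rose (-1.56 ± 0.34 and 1.28 ± 0.27 on the log2 scale). In all 9 of 16 tested genes of this G1 list rose and 4 fell (median 0.37). The retinoblastoma family genes *Rb1*, *Rbl1* and *Rbl2* rose by 0.90, 0.48 and 0.77 on the log2 scale.

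Of 32 mitosis genes tested, 11 rose (34.4%, near the 31.9% of all genes), 6 fell (18.8%, against 30.1%) and 15 did not pass the test (median 0.17), and with *Rxra*WT and *Rxra*SA pairs summed 6 rose and 3 fell. Without the 6 high rRNA libraries 12 rose and 3 fell. *Anln*, the anillin of the cleavage furrow, had 101 CPM at day 2 (74.5 to 159) and 211 CPM at day 6 (193 to 251) (log2 fold change 0.98 ± 0.087, adjusted p = 7.10e-12), and *Kif23*, a kinesin of cytokinesis, rose from 17.0 to 29.8 CPM (log2 fold change 0.65 ± 0.086, adjusted p = 5.38e-08). *Birc5* (survivin) and *Spc25*, of the kinetochore, fell by 0.45 and 0.53 on the log2 scale. The cell cycle homology region TTTGAA, searched on both strands, was in the promoter window of 20.2% of genes and of 20 of 27 mitosis genes with a window. Of those 20 genes 8 rose and 4 fell, so that genes with these letters changed both ways. The promoters of *Cdk1*, the mitotic kinase (303 to 391 CPM, adjusted p = 0.00101), and *Cdc20*, the activator of the anaphase-promoting complex (68.7 to 104 CPM, adjusted p = 5.50e-07), are shown with the letters in capitals, and both genes rose. Both genes are on the minus strand (chr10:69352913-69353033 and chr4:118437344-118437411), and the matches begin 71 and 15 bases before the start of *Cdk1* and 18 before that of *Cdc20*.
Cdk1: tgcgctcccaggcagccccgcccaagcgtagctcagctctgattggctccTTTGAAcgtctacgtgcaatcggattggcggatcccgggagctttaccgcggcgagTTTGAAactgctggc
Cdc20: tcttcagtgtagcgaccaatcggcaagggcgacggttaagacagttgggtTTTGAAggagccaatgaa

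Matrix genes changed in both directions. *Col18a1*, the basement membrane collagen that yields endostatin, had 2.92 CPM at day 2 (1.202 to 4.31) and 80.0 CPM at day 6 (38.4 to 117) (log2 fold change 4.78 ± 0.22, adjusted p = 2.87e-19). *Lama4*, the laminin chain of adipocyte basement membrane, had 3.21 CPM at day 2 (0.551 to 7.74) and 101 CPM at day 6 (63.5 to 129) (log2 fold change 5.02 ± 0.29, adjusted p = 1.04e-16). *Vcan*, the large proteoglycan of loose matrix, had 2842 CPM at day 2 (1397 to 3571) and 289 CPM at day 6 (190.3 to 382) (log2 fold change -3.15 ± 0.15, adjusted p = 3.32e-19). For *Col18a1* and *Lama4* all day 6 libraries were above day 2. For *Vcan* all were below, which the choice of the largest decreases required. Type IV collagens, the network of the same membrane, went the other way, with *Col4a1* at 2611 and 1315 CPM (log2 fold change -0.89 ± 0.21, adjusted p = 3.79e-04) and *Col4a2* at 688 and 414 CPM (log2 fold change -0.69 ± 0.30, adjusted p = 0.0481). *Col4a2* lost its call when any of 13 single libraries was left out (-0.58 to -0.70) and fell by 1.37 (adjusted p = 0.00109) without the 6 high rRNA libraries, and with pairs summed it did not pass the test (adjusted p = 0.146). *Postn*, a matricellular protein of fibroblasts, fell from 299 to 49.9 CPM (log2 fold change -2.60 ± 0.20, adjusted p = 2.93e-13), and the fibrillar collagen *Col3a1* rose from 34.0 to 292 CPM (log2 fold change 2.87 ± 0.28, adjusted p = 9.03e-11) without reaching its day 0 median of 564 CPM, and its change was 2.25 without the 6 high rRNA libraries. In the fibrillar list 15 of 27 rose and 7 fell (median 0.80), and in the basement membrane list 10 of 19 rose and 2 fell, or 6 and 4 without the 6 high rRNA libraries, and 1 fell with pairs summed.

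Genes that hold pre-adipocytes back from differentiation changed both ways. *Inhba*, the activin subunit, had 30.0 CPM at day 2 (2.28 to 87.7) and 0.788 CPM at day 6 (0.4004 to 2.14) (log2 fold change -4.63 ± 0.48, adjusted p = 2.49e-10), and *Grem1*, an antagonist of bone morphogenetic proteins, fell from 31.0 to 5.37 CPM (log2 fold change -2.54 ± 0.15, adjusted p = 3.81e-16) after a day 0 median of 1060 CPM. *Hes1*, a target of Notch, rose from 6.27 to 12.4 CPM (log2 fold change 1.03 ± 0.16, adjusted p = 6.93e-07), and *Tgfb1* rose from 5.51 to 11.3 CPM (log2 fold change 1.05 ± 0.28, adjusted p = 0.00142), though not without the 6 high rRNA libraries (0.55, adjusted p = 0.138). *Dlk1*, the classical pre-adipocyte gene, had 0 counts in all 24 libraries, which allows up to 0.0147 CPM at day 2 and 0.0137 CPM at day 6 by counting error. Of 23 tested gatekeeper genes 9 rose (39.1%) and 8 fell (34.8%), and of 16 surface genes of progenitors 5 rose and 7 fell, with *Cd44* (log2 fold change -2.06 ± 0.11, adjusted p = 1.63e-17) and *Vcam1* (log2 fold change -1.34 ± 0.069, adjusted p = 5.18e-18) lower and *Nt5e* (log2 fold change 1.92 ± 0.22, adjusted p = 2.61e-09) and *Cd9* (log2 fold change 1.26 ± 0.20, adjusted p = 1.62e-06) higher. Among actin cytoskeleton genes 10 of 22 rose and 3 fell, or 8 and 5 without the 6 high rRNA libraries. The smooth muscle genes *Myl9*, a regulatory myosin light chain, and *Lmod1*, an actin nucleator, were higher than at day 2 but low. *Myl9* went from 0.492 to 1.57 CPM (log2 fold change 1.83 ± 0.24, adjusted p = 3.09e-08), against a day 0 median of 85.9 CPM. *Lmod1* went from 1.89 to 5.5 CPM (log2 fold change 1.47 ± 0.17, adjusted p = 5.30e-09), against a day 0 median of 6.4 CPM. The crosslinkers *Flna* (log2 fold change -1.22 ± 0.15, adjusted p = 6.99e-09) and *Actn4* (-0.65) and the focal adhesion protein *Vcl* (log2 fold change -1.29 ± 0.14, adjusted p = 3.29e-10) were lower. With pairs summed *Actn4* did not pass the test (adjusted p = 0.0988).

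Markers of macrophages, endothelium, bone and cartilage were low, and those of smooth muscle were higher at day 6. Macrophage markers summed to 3.23 to 7.35 CPM at day 2 and 5.44 to 11.99 CPM at day 6, with no count of *Ptprc* on either day. Endothelial markers summed to 0.486 to 1.40 and 0.418 to 1.40 CPM, the bone and cartilage markers to 1.73 to 4.22 and 3.33 to 11.5 CPM, and the pre-adipocyte markers to 77.2 to 125.3 and 73.6 to 176.2 CPM. Smooth muscle markers rose in 7 of 8 genes (87.5%, against 31.9% of all genes). They summed to 42.4 to 88.5 CPM at day 0, 11.2 to 19.6 CPM at day 2 and 87.7 to 110.8 CPM at day 6. Without the 6 high rRNA libraries *Smtn* changed by 0.47 in place of 0.93 and *Synm* by 0.13 in place of 0.42. Both lost their calls in that fit, and *Synm* also with pairs summed (adjusted p = 0.118). *Des*, the muscle intermediate filament desmin, had 0.709 CPM at day 2 (0.248 to 1.38) and 20.6 CPM at day 6 (14.2 to 29.9) (log2 fold change 4.76 ± 0.17, adjusted p = 1.52e-22), and *Myh11*, smooth muscle myosin, had 2.34 CPM at day 2 (1.35 to 3.35) and 21.7 CPM at day 6 (12.3 to 43.4) (log2 fold change 3.44 ± 0.20, adjusted p = 1.40e-16). Of the skeletal muscle markers *Acta1* rose from 0.505 to 7.85 CPM, and *Myod1*, *Myf6* and *Myh1* had no count on either day. Which cells carried the smooth muscle transcripts was not tested.

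Sterol genes rose in 18 of 27 cases and fell in 6 (median 0.50). *Hmgcs1*, the HMG-CoA synthase at the head of the pathway, had 1113 CPM at day 2 (787 to 1371) and 362 CPM at day 6 (312 to 415) (log2 fold change -1.60 ± 0.097, adjusted p = 3.13e-16). *Cyp51*, the lanosterol demethylase, had 830.4 CPM at day 2 (411 to 1181) and 249 CPM at day 6 (141 to 500.5) (log2 fold change -1.59 ± 0.14, adjusted p = 2.21e-12). *Fdft1*, the squalene synthase between them, had 29.6 CPM at day 2 (23.8 to 36.9) and 115 CPM at day 6 (91.5 to 186) (log2 fold change 1.97 ± 0.11, adjusted p = 1.65e-17). The days did not overlap for *Hmgcs1* and *Fdft1* and overlapped for *Cyp51*. The efflux gene *Abca1*, the exporter of cholesterol, rose from 64.4 to 336 CPM (log2 fold change 2.25 ± 0.16, adjusted p = 1.48e-14). *Hmgcs1* was the 1 of 18 listed genes with a window that held the sterol response element TCACNCCAC, searched on both strands and present in 1.44% of genes. It is printed because its gene fell while most of the pathway rose (plus strand, chr13:119690164-119690272, match 137 bases before the start, in capitals).
Hmgcs1: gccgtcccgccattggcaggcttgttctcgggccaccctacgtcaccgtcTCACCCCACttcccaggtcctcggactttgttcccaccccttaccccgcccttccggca

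In the endoplasmic reticulum stress list 10 of 23 fell and 5 rose (median -0.16). *Asns*, the asparagine synthetase and a target of ATF4, had 524 CPM at day 2 (437 to 629) and 155 CPM at day 6 (106 to 264) (log2 fold change -1.66 ± 0.17, adjusted p = 1.26e-10), and *Atf4* itself fell from 830.1 to 390.3 CPM (log2 fold change -1.01 ± 0.12, adjusted p = 5.32e-09). *Dnajb9*, a chaperone partner of the lumen, fell from 82.0 to 27.4 CPM (log2 fold change -1.67 ± 0.17, adjusted p = 1.57e-10), whereas *Xbp1*, the transcription factor of the same response, rose from 134 to 276 CPM (log2 fold change 1.07 ± 0.066, adjusted p = 5.91e-16). Clock genes rose in 11 of 18 cases (median 0.66). *Dbp*, an output of the clock, had 5.29 CPM at day 2 (4.12 to 7.60) and 25.1 CPM at day 6 (19.6 to 32.0) (log2 fold change 2.27 ± 0.089, adjusted p = 2.90e-21), with separate ranges. The repressor *Bhlhe40* rose from 11.9 to 92.8 CPM (log2 fold change 3.06 ± 0.31, adjusted p = 1.93e-10), and its change was 2.38 without the 6 high rRNA libraries. The hour of sampling was not given in the labels.

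**Figure D4:**
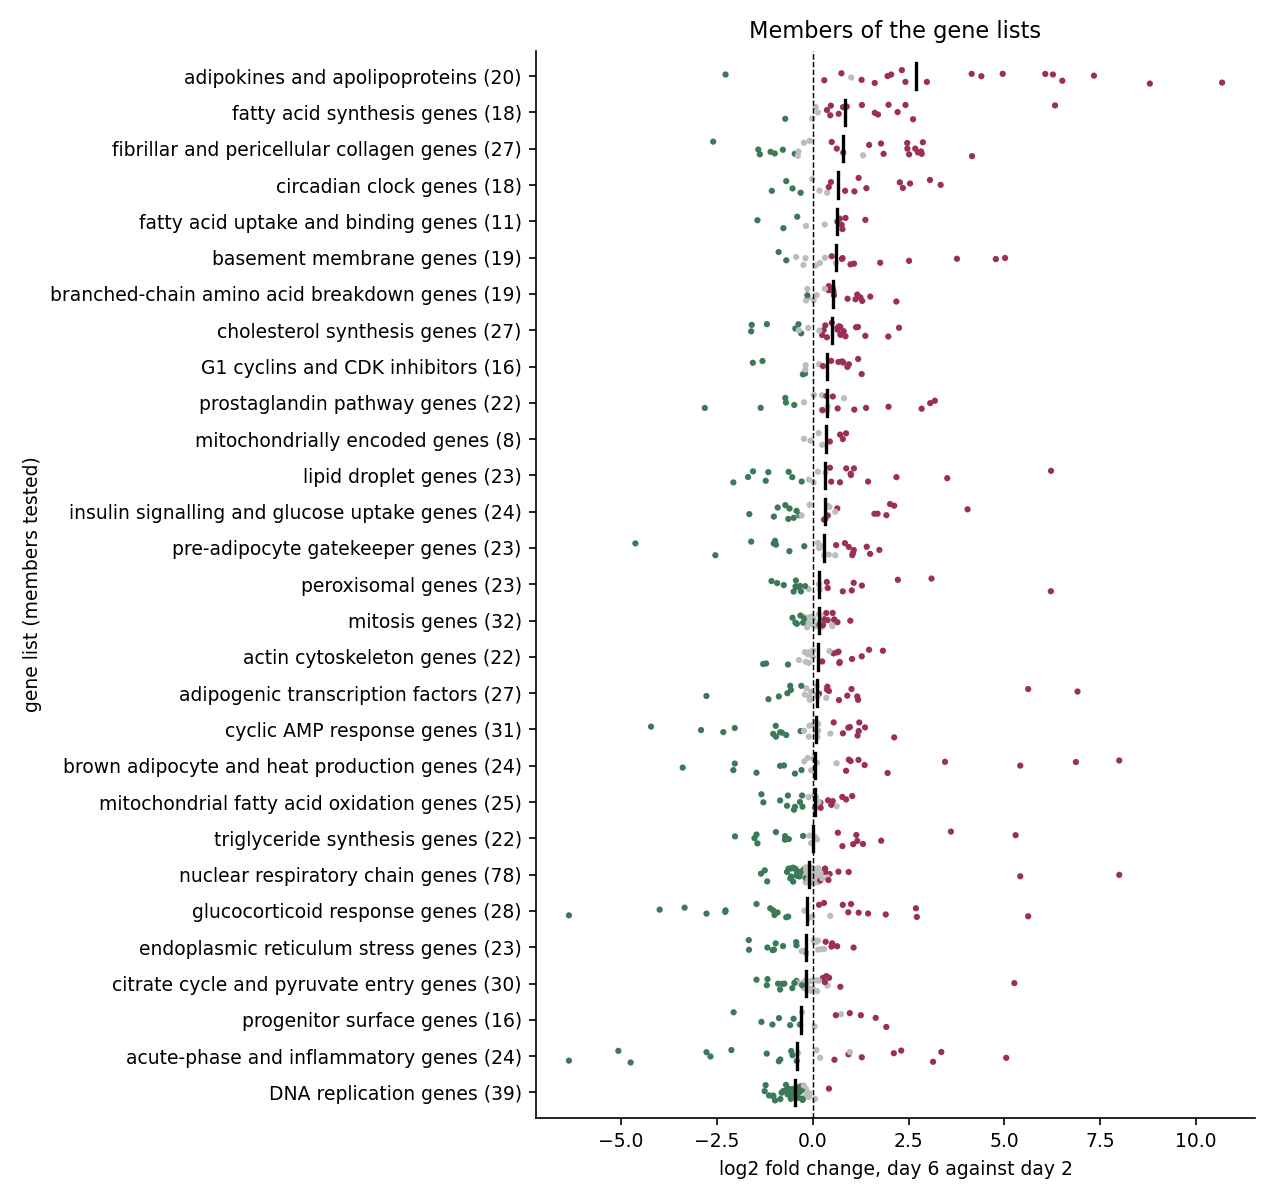
Log2 fold change of day 6 against day 2 (horizontal axis) for each tested member of 29 gene lists (rows, with the number tested), ordered by the list median (black bars). Green and red points passed the test below and above 0, and grey points did not. The medians run from 2.7002 for adipokines and apolipoproteins to -0.46 for DNA replication genes.

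The change from day 2 to day 6 was then compared between genotypes, which asks whether serine 22 alters maturation. In edgeR's quasi-likelihood test 0 of 16723 genes (0%) had a different change in *Rxra*SA and *Rxra*WT cells, with 153 genes at an unadjusted p under 0.05, and DESeq2 called 0 genes with 133 at that level. The smallest adjusted p was 1. The median absolute difference was 0.092 on the log2 scale and the median SE of the difference was 0.27, in a fit that does not pair the libraries. With each same-numbered *Rxra*WT and *Rxra*SA pair of a day as a block, the median SE was 0.15, 0 genes were called, 509 had an unadjusted p under 0.05 and the smallest adjusted p was 0.662. If no gene differed, an exact test would put a share of 0.05 of genes under that level. The counts of 153, 133 and 509 are below this share, so 0 calls does not show that the changes were equal. For *Slc2a4* the difference was 0.14 and for *Fkbp5* -0.0056 on the log2 scale (*Rxra*SA minus *Rxra*WT).

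The change was also compared between the clones. Of 16056 genes tested in each clone alone, 6103 were called in the same direction in both and 60 in opposite directions. In the test of the difference itself 1022 of 17589 genes (5.81%) differed, 558 with the more positive change in clone 66 and 464 in clone 48, and 473 of them differed at least 2-fold. This count depended on how the paired libraries were treated, since 238 genes (1.33%) differed with same-numbered *Rxra*WT and *Rxra*SA libraries summed and 2082 with the replicate number as a block. *Adipoq* had 534 to 1142 CPM in clone 48 and 67.5 to 144 CPM in clone 66 at day 2, and 2090 to 3451 and 1295 to 2190 CPM at day 6. *Inhba* had 2.28 to 6.33 and 53.7 to 87.7 CPM at day 2, and 0.4004 to 1.02 and 0.564 to 2.14 CPM at day 6. In both genes the clones stood apart at day 2, with *Adipoq* higher in clone 48 and *Inhba* higher in clone 66. *Inhba* ranges of the clones overlapped at day 6, and those of *Adipoq* overlapped slightly.

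**Figure D5:**
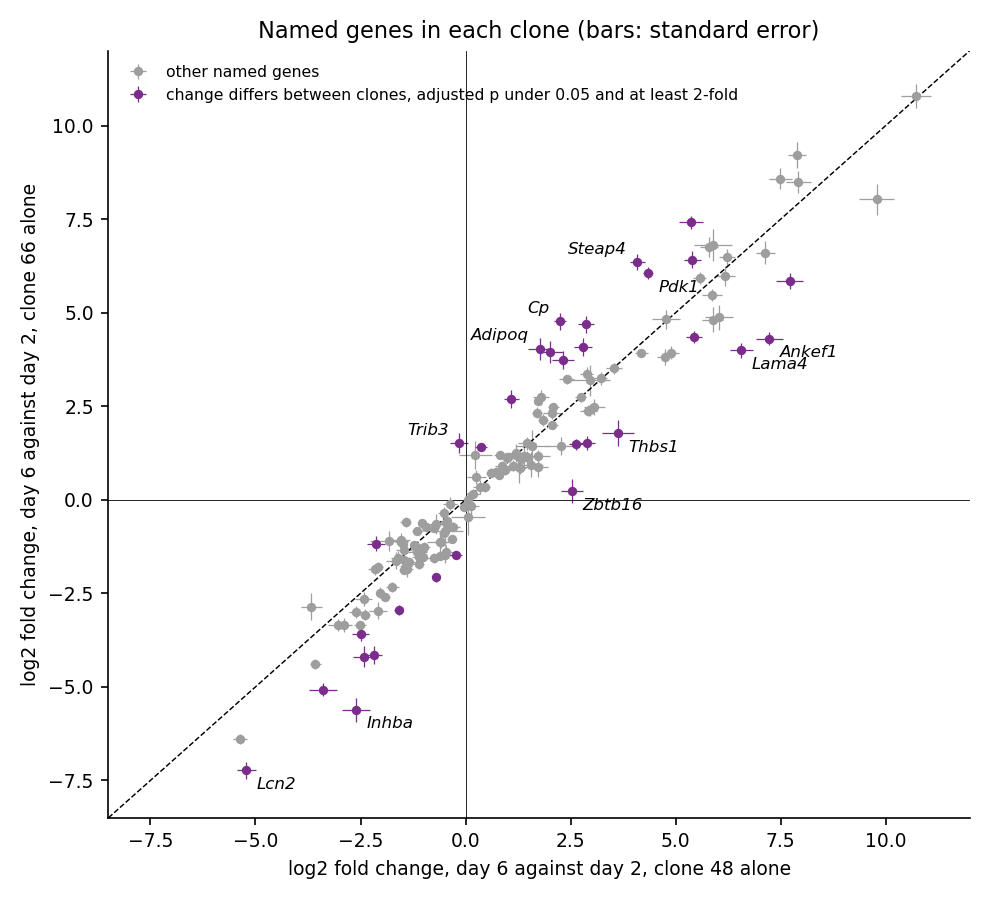
Log2 fold change of day 6 against day 2 in clone 66 alone (vertical axis) against clone 48 alone (horizontal axis) for the named genes fitted in both, with standard errors as bars and the line of equality dashed. Purple genes differed between clones with an adjusted p under 0.05 and at least 2-fold, such as Inhba (-2.61 in clone 48 and -5.61 in clone 66) and Adipoq (1.77 and 4.04).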

How the data were processed

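RNA of 36 libraries was sequenced after total RNA preparation with rRNA removal, in paired-end mode. Per the labels and the methods of the study, the authors aligned reads with STAR 2.7.0d to GRCm38 (mm10) with the GENCODE M21 annotation, counted uniquely mapped fragments over exons of each gene with featureCounts 1.6.2, without regard to strand, and deposited the raw read counts of each library. Genes that overlap, lie antisense to each other or have near-identical copies are therefore uncertain. The total count was 15664658 to 24198110 per library at days 2 and 6.

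Of 55536 genes listed, 36853 had a count, and 16723 passed filterByExpr of edgeR 4.0.16. Counts were scaled by TMM and fitted with the quasi-likelihood model (legacy form) over all 36 libraries with genotype and day as groups and clone as a block, as in the methods of the study. The contrasts were day 6 against day 2 with genotypes averaged, and the difference of that change between genotypes. A fit with a coefficient for each clone, genotype and day, again over 36 libraries, gave the difference between clones in 17589 genes. Genes with an adjusted p under 0.05 are called, and rose or fell is written only of these. CPM values carry no pseudocount. The steps were run on simulated counts drawn independently for each library, with the same spread for all genes. These held no deviation shared by pairs and no variation with clone or rRNA share. For the genotype difference the fit simulated was that with the pairs as blocks. The simulation therefore does not test how the fits treat libraries that deviate together.

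Genes named are (a) the 10 largest increases and 10 largest decreases among called genes whose average log2 CPM was 5 or more and whose days did not overlap, (b) *Rxra* and markers the study follows, (c) up to 2 called members per direction of each list whose average log2 CPM was 2 or more, and (d) anchors of brown fat and of the cocktail response. Other genes were named after their values were seen. A few genes that these rules name are not reported here. The members and lists were chosen with earlier results of these data known, and no list is independent evidence of its direction.

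Same-numbered *Rxra*WT and *Rxra*SA libraries of a clone and day deviated together (correlations of deviations from group means 0.471 to 0.930, 12 of 12 pairs over 0.1), so they count as paired. The fits described above do not pair them. Each pair was summed, or taken as a block for the genotype difference, as an alternative, the latter chosen after seeing the data. No replicates were duplicates of each other. Alternatives covered the model, samples in the fit, test (DESeq2 1.42.0), scaling, filter, a 2-fold threshold, each library left out, and, chosen after seeing the data, leaving out the 6 libraries over 3% mitochondrial rRNA. Promoter windows were taken from RefSeq (GRCm38.p6). Those of chromosome 18 were left out, so genes there, such as *Crem*, count as having no window and are not among the genes of the motif shares.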

Additional observations from a re-analysis of the deposited data

Results flagged for a closer look

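The change from day 2 to day 6 differed between clones 48 and 66 by at least 2-fold, with an adjusted p under 0.05 (edgeR's quasi-likelihood test), in 29 of the named genes. Differences are given on the log2 scale as clone 66 minus clone 48. No clone, genotype and day had over 3 libraries, so libraries far from the rest of their group were not sought. Clone and library pool cannot be told apart.

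Among genes of the cocktail response and of stress, the fall was steeper in clone 66 for *Lcn2* (-1.95), *Sgk1* (-1.92), *Pde4b* (-1.31), *Serpina3n* (-1.63), *Ifi204* (-1.71) and *Pdk4* (-1.31). *Lcn2* had 43.9 to 62.6 CPM in clone 48 and 262 to 369.6 CPM in clone 66 at day 2. At day 6 it had 1.02 to 2.11 and 1.29 to 3.84 CPM, so the clones stood apart at day 2 and overlapped at day 6. *Zbtb16* (-2.26) rose by 2.53 in clone 48 alone, and its change was 0.23 in clone 66 alone. *Asns* differed by 1.00 and *Trib3* by 1.71. *Trib3* changed by -0.16 in clone 48 and 1.51 in clone 66.

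Among matrix and signalling genes, *Inhba* (-2.95) fell more steeply in clone 66. *Lama4* (-2.53) and *Thbs1* (-1.82) rose more in clone 48, and *Col3a1* (1.96) and *Nt5e* (1.66) rose more in clone 66.

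Other genes rose more in clone 66, where their day 2 medians were lower. The differences were 2.32 for *Adipoq*, 2.10 for *Cfd*, 2.30 for *Steap4*, 2.56 for *Cp*, 1.88 for *Aqp7*, 1.76 for *Pdk1*, 1.07 for *Car3*, 1.09 for *Acot2* and 1.46 for *Ptgir*. *Cfd* had 26.2 to 48.6 CPM in clone 48 and 3.92 to 7.62 CPM in clone 66 at day 2, and 1233 to 1834 and 707 to 1084 CPM at day 6. In contrast, *Ankef1* (-2.88), *Pnpla3* (-1.85) and *Acaa1b* (-1.32) rose more in clone 48. *Cidea* (-3.80) rose by 3.22 in clone 48 alone and was too low to be tested in clone 66 alone, and it stayed at or below 1.66 CPM. *Far1* (-1.19) and *Ppa1* (-1.03) fell more in clone 66.

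With same-numbered *Rxra*WT and *Rxra*SA libraries summed, 17 of the 29 differences kept an adjusted p under 0.05. The others were *Pnpla3* (0.16), *Thbs1* (0.245), *Ifi204* (0.0755), *Serpina3n* (0.0693), *Acaa1b* (0.0878), *Ppa1* (0.176), *Asns* (0.33), *Car3* (0.12), *Ptgir* (0.111), *Trib3* (0.102), *Col3a1* (0.0694) and *Adipoq* (0.0596).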

How the results depend on the processing

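The count of genes called between days 2 and 6 lay between 7356 and 11936 under the alternatives, apart from the test against a 2-fold change, which called 2064 (1530 higher, 534 lower). Leaving out 1 library gave 10192 to 10491. With the replicate number of a clone as a block the count was 11313. Libraries of days 2 and 6 with the same number had a mean correlation of 0.477 (0.0126 to 0.882, 10 of 12 over 0.1) and those with different numbers -0.226, and 16 of 24 libraries correlated best with their own number, so pairing across days was not established for every pair. Of 152 named genes, 99 kept their direction and side of the threshold under all 45 alternatives. *Fasn* reversed without the libraries over 3% mitochondrial rRNA (-0.043, adjusted p = 0.91), and *Trib3* in clone 48 alone (-0.16, adjusted p = 0.595). The causes were not tested. Over all libraries of both days *Trib3* rose (log2 fold change 0.64 ± 0.23, adjusted p = 0.0156), and without the 6 libraries its change was 0.22 (adjusted p = 0.448), and with pairs summed its adjusted p was 0.0992.

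The genotype difference gave 0 calls under every alternative run and 0 to 0 with 1 library left out. The clone difference gave 2082 with the replicate block, 238 with pairs summed, 186 in *Rxra*WT and 151 in *Rxra*SA libraries alone, 72 against 2-fold, 661 without the libraries over 3% mitochondrial rRNA, and 836 to 1466 with 1 library left out. Without clone 48 *Rxra*WT day 2 replicate 1, the calls with the more positive change in clone 48 were 911. The median SE of the genotype difference was 0.27, or 0.15 with the pairs of a day as replicate block. Fewer libraries enter the fits of 1 genotype, and summing leaves 6 sums a day.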

Other observations

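The lists in these paragraphs were assembled after the values had been seen, so their counts only describe these genes. Over all genes tested 31.9% rose and 30.1% fell, and every day 6 library was below every day 2 library in 7.56%. Of 17 genes of glycolytic enzymes 16 rose and 0 fell, with a median log2 fold change of 1.91. *Pgk1*, phosphoglycerate kinase, had 103 CPM at day 2 (89.2 to 146) and 1005 CPM at day 6 (785 to 1203) (log2 fold change 3.21 ± 0.11, adjusted p = 7.66e-23). *Ldha*, the lactate dehydrogenase subunit of glycolytic tissue, had 413 CPM at day 2 (271 to 583) and 2443 CPM at day 6 (2186 to 3055) (log2 fold change 2.66 ± 0.12, adjusted p = 4.25e-20). Every day 6 library was above every day 2 library in both, and pseudogenes make the counts of *Ldha* uncertain. Of 24 genes known to answer low oxygen, some of which also belong to other lists, 23 rose and 1 fell (median 2.13). *Egln3*, a prolyl hydroxylase of the oxygen-sensing pathway, had 5.49 CPM at day 2 (1.79 to 7.75) and 97.8 CPM at day 6 (39.8 to 215) (log2 fold change 4.26 ± 0.17, adjusted p = 3.39e-21), and *Car9*, a carbonic anhydrase, had 0.223 CPM at day 2 (0.0578 to 0.416) and 15.0 CPM at day 6 (5.89 to 33.5) (log2 fold change 6.31 ± 0.32, adjusted p = 3.96e-18, or 5.64 without the 6 libraries over 3% mitochondrial rRNA). The member that fell was *Hilpda*, a droplet protein that inhibits lipolysis, with medians of 22.97 and 15.8 CPM. Oxygen was not recorded in the labels, and its part in these changes was not tested.

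Of 40 ribosome biogenesis genes 36 fell and 0 rose (median -1.1954), and in 31 every day 6 library was below every day 2 library. *Nop56*, a core protein of the snoRNPs that guide rRNA methylation, had 265 CPM at day 2 (233 to 304) and 66.3 CPM at day 6 (59.6 to 85.9) (log2 fold change -1.97 ± 0.10, adjusted p = 7.20e-18), against a day 0 median of 84.3 CPM. Of 19 tested cytosolic tRNA synthetases 16 fell and 0 rose (median -0.74), among them *Rars*, the arginyl-tRNA synthetase, from 548 to 144 CPM. Antigen presentation on MHC class I went the other way, with 14 of 14 genes higher (median 2.24). *H2-K1*, a classical class I heavy chain, had 64.7 CPM at day 2 (42.7 to 93.9) and 536 CPM at day 6 (492 to 769.9) (log2 fold change 3.11 ± 0.14, adjusted p = 2.59e-19), and the immunoproteasome subunit *Psmb8* rose from 0.475 to 10.4 CPM. Class I heavy chain genes are near-identical, so reads may be split between them.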
